A study of Mus musculus with 4 samples.

Results

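The genes of the core autophagy machinery were followed in tibialis anterior (TA) muscle of WT and Fgf21KO mice after denervation. Members were chosen by gene symbol alone: Atg, Ulk or Wipi followed by a digit, Map1lc3 or Gabarap at the start, or one of Becn1, Sqstm1, Nbr1, Optn, Rb1cc1, Pik3c3, Pik3r4, Uvrag, Ambra1 and Tfeb. The rule uses no measured value, and it found 38 of the 13825 genes in the count table. All 38 had a mean count of at least 10 and were among the 13084 genes tested. Their relatives Ulk4 and Atg9b were not analysed here. WT mice gave a sham (WS) and a denervated (WD) group, and Fgf21KO mice likewise gave KS and KD, which makes 4 groups, all taken from adult male mice on day 14 after the left sciatic nerve was cut. Fgf21KO mice lack Fgf21 in the whole body, the WT mice were C57BL/6J, and the background of the KO line is not given in the sources used here. The sham and denervated muscles came from opposite legs of the same mice, as far as the sources describe it, and these differ on whether the innervated leg was also opened. Each group was 1 library made from the pooled RNA of 4 muscles, so mouse to mouse spread could not be seen.

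Macroautophagy wraps cytoplasm, protein aggregates and worn organelles in a double membrane and delivers them to lysosomes. A kinase complex starts the process, a lipid kinase marks the membrane, lipid transfer and scramblase proteins feed its growth, and small ubiquitin-like proteins of the Atg8 family are coupled to it by dedicated enzymes. Receptors bind both cargo and Atg8 proteins, and TFEB switches on autophagy and lysosome genes when nutrients are short. In skeletal muscle the pathway is known both as a route of protein loss in atrophy and as a need of healthy fibres. All values below are mRNA levels, which do not measure autophagic flux.

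The libraries held 25249879 counts in WS and 29150147 in WD, and 34141303 in KS and 27740920 in KD over the genes listed, and the table lists only genes with a read in every library. Levels are CPM, counts relative to library size, scaled by TMM, a factor that sets the bulk of genes equal between libraries. The factor was 0.9202 in WS and 1.12 in WD, and 0.87 in KS and 1.115 in KD. No value for Fgf21 itself was analysed here, which leaves the genotype labels unchecked. The labelled surgery was visible in Ncam1, an adhesion molecule that spreads over fibres that lost their nerve: it had 234 counts in WS and 3319 in WD, and 235 in KS and 3298 in KD. Of 6 genes that define fast TA fibres, only Myh1, a fast myosin heavy chain, was in the table, with 510937 to 641610 counts per library. The other 5 were not analysed here.

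Cell type markers also moved with denervation. Rises and falls counted here are calls of the edgeR test described below, which called 26.6% of all genes higher and 27.0% lower. All 10 macrophage markers were in the table with none at 0. Of these, 8 rose and none fell, and their summed level was 34.35 CPM in WS and 75.96 in WD, and 37.23 in KS and 75.06 in KD. The 4 endothelial markers all fell, with a summed level of 397.1, 179.0, 318.7 and 173.1 CPM, and 5 of 7 fibro-adipogenic progenitor markers fell, from 830.8 and 792.7 CPM in WS and KS to 507.6 and 553.9 in WD and KD. Of 4 Schwann cell markers 2 were in the table, of which 1 fell, while none of the 3 satellite cell and 3 adipocyte markers was. In bulk RNA, fewer cells of a type and less RNA per cell cannot be told apart, and the part of these shifts in the results below was not tested.

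Denervation raised 13 of the 38 genes and lowered 7. The largest rise was that of Map1lc3a, an LC3 gene, and the largest fall that of Tfeb. Both genotypes showed each of these 20 changes in the same direction. The test described next favours genes that moved alike in both, and the same share over all genes called was not computed. The effect was tested over all 4 libraries with edgeR's quasi-likelihood test in a model with terms for genotype and surgery, and a gene was called at an adjusted p below 0.05. The 20 genes are 52.6% of the members, beside 53.5% of all genes tested. Those that rose are 34.2%, beside a background of 26.6%, and those that fell are 18.4%, beside 27.0%. Among members 68.4% had a fitted level above sham, against 50.8% of all genes, and the median log2 fold change was 0.085 for members and 0.009 for all genes. With a fold of at least 2 required as well, 1 member rose, where 6.84% of all genes did, and 1 fell, where 6.24% did. The share of members called was thus close to that of all genes. The model has 1 residual degree of freedom, the interaction between genotype and surgery, and edgeR shares information on it over genes. Its p-values thus set the size of an effect against a spread drawn from genotype differences over many genes. They do not measure the spread between mice, nor how alike the effect of a single gene was in the 2 genotypes.

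**Figure D1:**
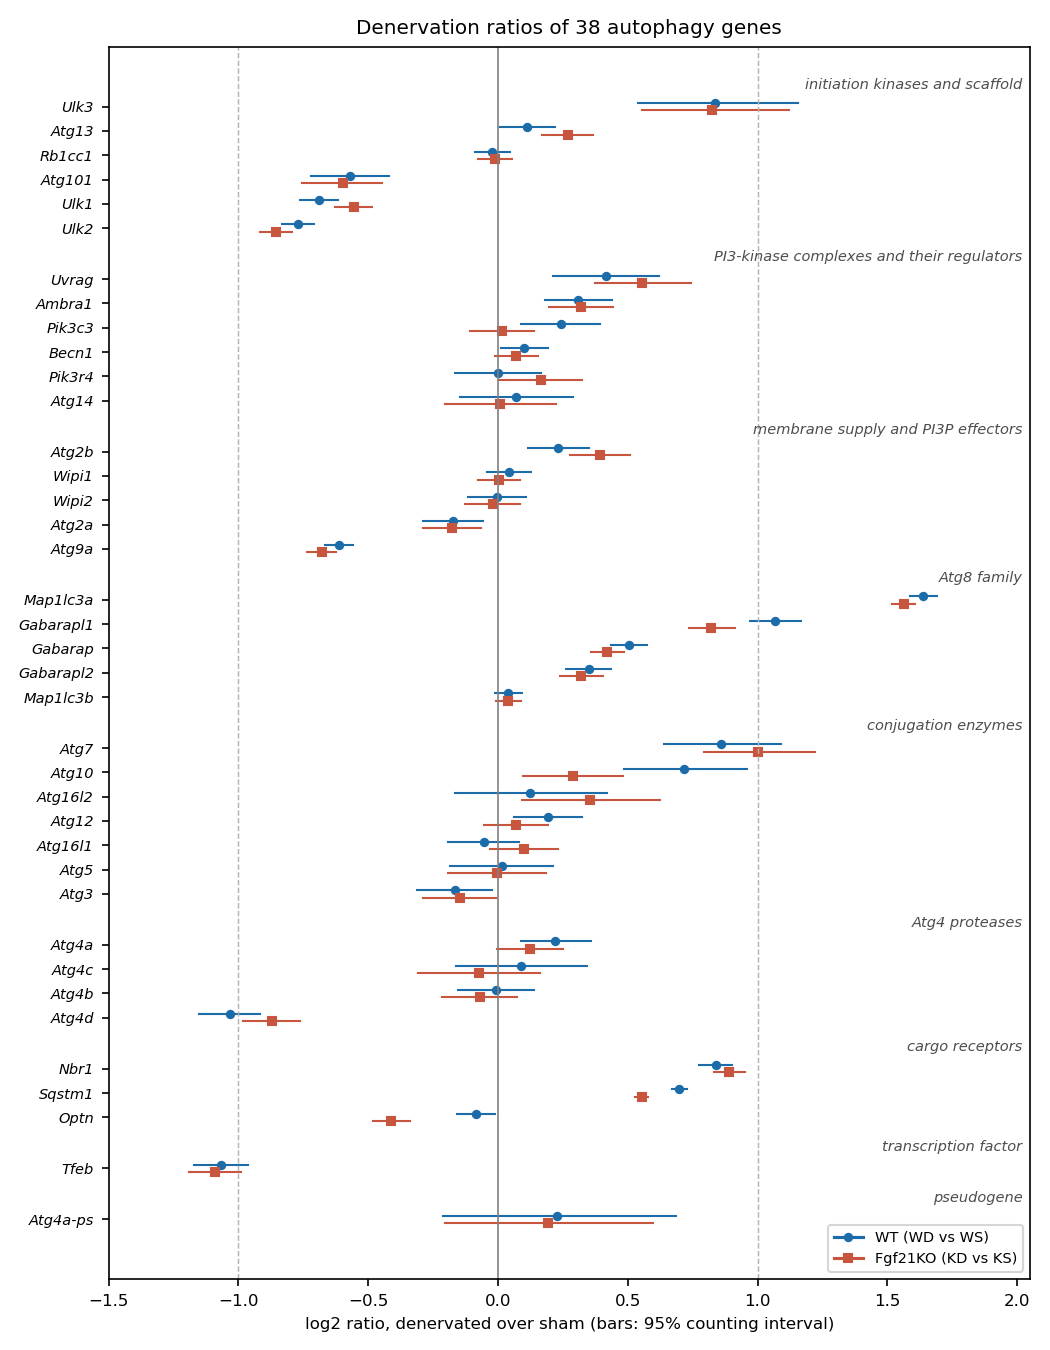
Log2 ratio of denervated over sham muscle for the 38 genes, grouped by role, in WT (blue circles, WD vs WS) and Fgf21KO (red squares, KD vs KS); bars are 95% intervals for counting error and dashed lines mark a 2-fold difference. Map1lc3a is farthest to the right and Tfeb farthest to the left in both genotypes, and most members lie between the dashed lines.

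The scale matters for the balance of rises and falls. With library totals in place of TMM, the median of all genes moved from 0.009 to 0.331 on the log2 scale and that of members from 0.085 to 0.406. Of the members called, 81.8% were then higher, against 65.0% under TMM, while for all genes called these shares were 78.5% and 49.6%. The number of members called higher went from 13 to 27, with Map1lc3b (0.36) and Becn1 (0.41) among those added, and the number called lower from 7 to 6, with Optn lost. All directions below are relative to the bulk of genes.

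The members made up 0.277% of all counts in WS and 0.415% in WD, and 0.27% in KS and 0.415% in KD. Their summed level was 3012 CPM in WS and 3102 in KS, and 3705 in WD and 3725 in KD. The gains of Sqstm1 and Map1lc3a together were larger than the net gain in either genotype. Sqstm1 alone took 21.2% of the members' counts in WS and 28.0% in WD, and 22.4% in KS and 27.4% in KD. Map1lc3a took 5.14% and 13.0% in WT, and 5.96% and 14.7% in Fgf21KO.

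In the Atg8 family 4 of 5 genes rose, by 1.26-fold to 3.03-fold, and 1 was not called (all genes: 26.6% higher, 27.0% lower). Map1lc3a encodes LC3A, which is lipidated onto the growing membrane and serves as a docking site for cargo. It lies at chr2:155276297-155278073 on the plus strand of GRCm38 (GENCODE M21), shares no 50-base stretch with transcripts of another gene, and overlaps none. Its level was 154.8 CPM in WS and 482.3 in WD, and 184.8 in KS and 546.1 in KD. Both denervated libraries stood well above both sham libraries, and each KO library stood above its WT counterpart. Here and below, such a separation of libraries is a description, and its share over all genes was not computed. The log2 fold change for denervation was 1.60 (SE 0.072, edgeR adjusted p = 2.85e-17), a 3.03-fold rise, and 97.2% of all genes tested had a lower one.

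Map1lc3b encodes LC3B, the protein most often blotted as a marker of autophagosomes. Its level was 216.7 CPM in WS and 222.7 in WD, and 220.6 in KS and 226.8 in KD, so the 4 libraries spanned a narrow band. It was not called (log2 fold change 0.04, SE 0.070, edgeR adjusted p = 0.655). In sham muscle Map1lc3b thus had the higher CPM of the LC3 pair and in denervated muscle Map1lc3a did. Per kb of principal transcript, where the order was already Map1lc3a first, the level of Map1lc3a was 139.2 in WS and 433.7 in WD and that of Map1lc3b 85.58 and 87.95. Of the 50-base stretches of Map1lc3b transcripts, 5.77% also occur in other genes, with 3.67% in the processed pseudogene Gm6055.

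The GABARAP branch of the family acts later, in closing the vesicle and in its fusion with lysosomes. Gabarapl1 rose from 47.13 CPM in WS to 98.84 in WD and from 53.8 in KS to 95.16 in KD (log2 fold change 0.94, SE 0.080, edgeR adjusted p = 4.15e-11). Gabarap was at 111.5, 158.2, 115.1 and 154.1 CPM in WS, WD, KS and KD (0.46, SE 0.072, adjusted p = 3.11e-06). Gabarapl2 was at 72.22, 92.04, 71.17 and 88.92 CPM (0.34, SE 0.074, adjusted p = 0.000367). For all 3 genes both denervated libraries lay above both sham libraries, by roughly 2-fold for Gabarapl1 and by less for the others. An antisense neighbour, 1700101I11Rik, overlaps 28.3% of the exonic bases of Gabarapl1, and 12.2% of the stretches of Gabarapl2 recur in other genes. The kit keeps strand, but whether reads were counted by strand is not given in the sources used here. As a family the 5 genes summed to 602.3 CPM in WS and 1054 in WD, and 645.4 in KS and 1111 in KD.

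**Figure D2:**
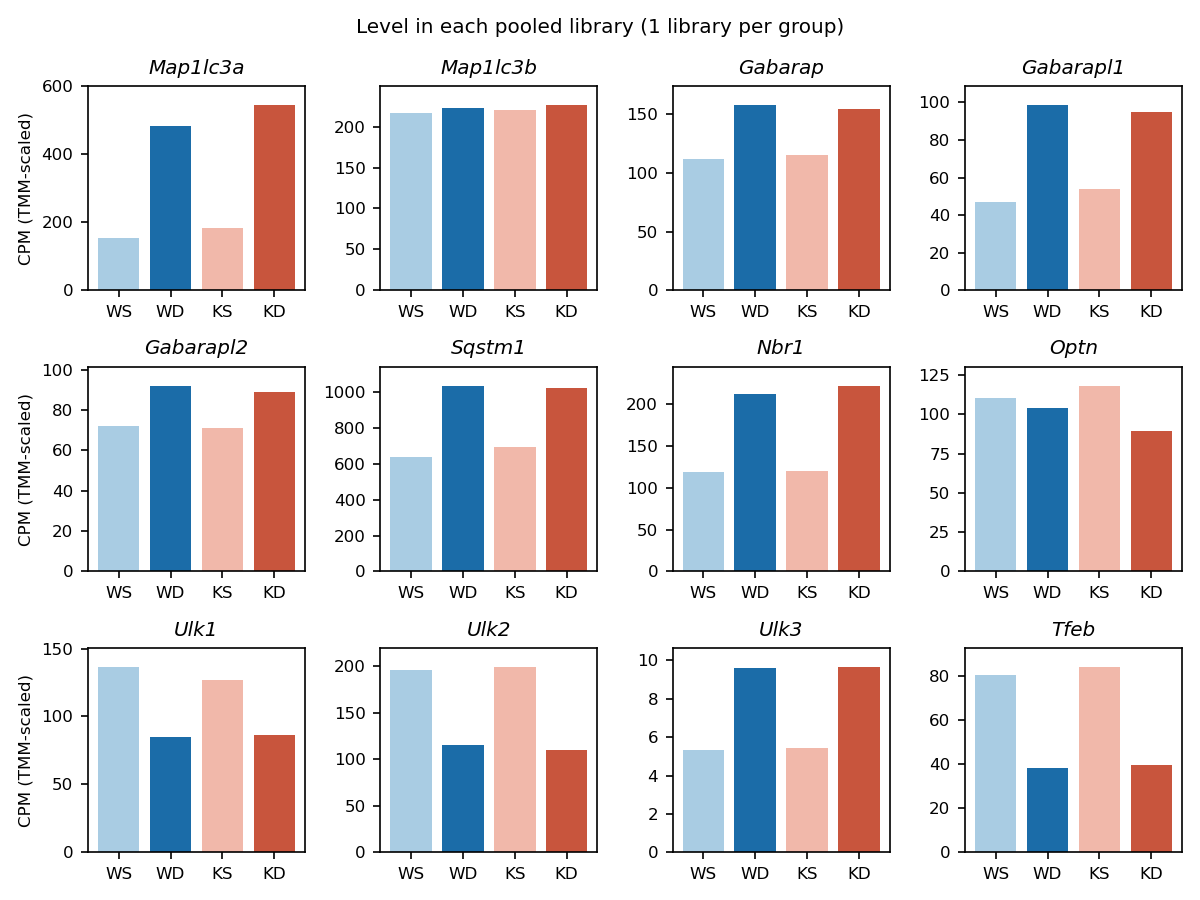
Level of 12 members in each of the 4 pooled libraries, in TMM-scaled CPM on axes starting at 0, with 1 bar per library and no error bar because each group is 1 library. Map1lc3a, Gabarapl1, Sqstm1, Nbr1 and Ulk3 have tall WD and KD bars, Map1lc3b is level, and Ulk1, Ulk2 and Tfeb have short WD and KD bars.

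The 3 cargo receptors among the members did not move as one. Sqstm1 encodes p62, which carries ubiquitinated proteins to the membrane and is itself degraded there. It was the most abundant member per kb of transcript in every library, at 639.7 CPM in WS and 1038 in WD, and 696.2 in KS and 1022 in KD. The rise was 1.54-fold (log2 0.63, SE 0.074, edgeR adjusted p = 3.04e-08). The neighbour Mrnip on the other strand overlaps 17.3% of its exonic bases. Nbr1, a relative of p62 that helps to gather ubiquitin clusters, went from 118.3 CPM in WS to 211.6 in WD and from 119.8 in KS to 222.2 in KD (log2 0.87, SE 0.071, adjusted p = 2.28e-11). Optn encodes optineurin, a receptor for damaged mitochondria and bacteria, and was at 110.7, 104.4, 118.4 and 89.15 CPM in WS, WD, KS and KD. It fell over both genotypes (log2 -0.25, SE 0.079, adjusted p = 0.00925), but the WD library was only slightly below WS and the KD library held most of the difference. Fits without 1 library had to use surgery as the only term, a model that with all 4 libraries kept every member call but that of Atg13. In these fits Optn was at -0.13 without KD (adjusted p = 0.381) and at -0.20 without KS (adjusted p = 0.106), and with library totals it turned to 0.07.

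The group of initiating kinases and their scaffold takes in Ulk3 by its symbol. Of its 6 genes 3 fell, 2 rose and 1 was not called (all genes: 26.6% higher, 27.0% lower). Ulk1 and Ulk2 encode the kinases that receive the signal from mTORC1 and AMPK. Ulk1 was at 136.7 CPM in WS and 84.78 in WD, and 126.6 in KS and 86.11 in KD (log2 fold change -0.62, SE 0.074, edgeR adjusted p = 3.07e-08). Ulk2 was at 195.8, 114.9, 199.4 and 110.2 CPM (-0.81, SE 0.072, adjusted p = 9.52e-11). Denervated libraries were lower than sham libraries for both kinases, a separation whose share over all genes was not computed. Atg101, a scaffold subunit that stabilises Atg13, went from 31.38 CPM in WS to 21.13 in WD and from 28.78 in KS to 19.01 in KD (-0.58, SE 0.1, adjusted p = 1.3e-05).

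The relative Ulk3 went the other way, from 5.337 CPM in WS to 9.587 in WD and from 5.42 in KS to 9.665 in KD (log2 fold change 0.84, SE 0.161, edgeR adjusted p = 6.6e-05). It was the least abundant kinase of the group, with 124 to 313 counts per library. Atg13, the regulatory partner of the kinases, was just past the threshold (0.19, SE 0.081, adjusted p = 0.0462). Its call was lost with surgery as the only term and all 4 libraries (adjusted p = 0.0579), and in that model also without WD (adjusted p = 0.117), without KS (0.164) and without KD (0.35), so the losses cannot be put down to a library. Rb1cc1, which encodes the large scaffold FIP200, was at 130.2, 128.4, 127.9 and 126.9 CPM in WS, WD, KS and KD (-0.02, adjusted p = 0.871).

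The lipid kinase group, which makes the phosphoinositide that marks the membrane, had 2 members called higher of 6 (all genes: 26.6% higher, 27.0% lower). These were Uvrag, a partner of the endosomal form of the complex (log2 fold change 0.49, SE 0.118, edgeR adjusted p = 0.000877), and Ambra1, which links the complex to the initiating kinases (0.32, SE 0.087, adjusted p = 0.00315). Uvrag was at 13.13, 17.52, 13.47 and 19.81 CPM in WS, WD, KS and KD, and Ambra1 at 33.83, 41.93, 32.15 and 40.11. Without KD the call on Uvrag was lost (0.40, adjusted p = 0.0625), and without WD that on Ambra1 was (0.28, adjusted p = 0.0759). Becn1, the scaffold beclin 1, was at 73.12, 78.47, 76.08 and 79.87 CPM and was not called (0.09, SE 0.075, adjusted p = 0.35), although 43.9% of its exonic bases lie across from Cntd1. The catalytic subunit Pik3c3, the regulatory subunit Pik3r4 and Atg14, which directs the complex to autophagy, were not called, with log2 fold changes of 0.12, 0.08 and 0.04. Of the fits without 1 library, that without KS called Pik3c3 (0.38, adjusted p = 0.0277).

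Of 5 genes that supply membrane or read the phosphoinositide, 1 rose, 1 fell and 3 were not called (all genes: 26.6% higher, 27.0% lower). Atg9a, the scramblase carried by seed vesicles, had the highest CPM of them and fell from 238.2 CPM in WS to 155.7 in WD and from 225.3 in KS to 140.7 in KD (log2 fold change -0.65, SE 0.071, edgeR adjusted p = 7.07e-09). A transcript named Gm29253 overlaps 31.8% of its exonic bases on the same strand, so part of its count could belong to either. Atg2b, a lipid transfer protein, rose a little (0.31, SE 0.085, adjusted p = 0.00267), and without KS it was at 0.22 (adjusted p = 0.0522). Its paralog Atg2a was at -0.18 (adjusted p = 0.0769). Wipi1 and Wipi2, which bind the phosphoinositide, were at 0.02 and -0.01, within 84.44 to 86.95 CPM in WT for Wipi1 and 48.3 to 48.38 for Wipi2.

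Among the 7 conjugation genes, 2 rose and 5 were not called (all genes: 26.6% higher, 27.0% lower). Atg7 encodes the enzyme that activates both Atg12 and the Atg8 proteins. It was at 9.727 CPM in WS and 17.7 in WD, and 8.989 in KS and 18.07 in KD (log2 fold change 0.94, SE 0.126, edgeR adjusted p = 3.02e-07). Atg10, which passes Atg12 on to Atg5, was at 9.254, 15.25, 13.57 and 16.58 CPM (0.49, SE 0.131, adjusted p = 0.0022). Both denervated libraries were above both sham libraries for these 2 genes, but KS lay close under WD for Atg10, and its call was lost without WS (0.22, adjusted p = 0.184) and without KD (0.41, adjusted p = 0.0704). Atg3, Atg5, Atg12, Atg16l1 and Atg16l2, which include the last enzyme of the Atg8 branch and the complex that acts with it, ran from -0.16 for Atg3 to 0.24 for Atg16l2, with adjusted p-values of 0.171 to 0.973.

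The Atg4 proteases trim new Atg8 proteins and strip them from membranes. Of 4 genes only Atg4d was called (all genes: 26.6% higher, 27.0% lower). It fell from 62.45 CPM in WS to 30.51 in WD and from 63.76 in KS to 34.85 in KD (log2 fold change -0.95, SE 0.084, edgeR adjusted p = 9.49e-11). Atg4a, Atg4b and Atg4c were at 0.17, -0.04 and 0.01. Reads of Atg4a are uncertain: 51.2% of its 50-base stretches also occur in Atg4a-ps, a copy named as a pseudogene, which with 69 to 117 counts per library was the member with the fewest and was not called either (0.21, SE 0.232, adjusted p = 0.457). Of the exonic bases of Atg4d, 19.3% face Kri1.

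Tfeb was the member with the largest fall. It lies at chr17:47737030-47792419 on the plus strand of GRCm38, with no overlap and no shared stretch. The level was 80.61 CPM in WS and 38.5 in WD, and 84.3 in KS and 39.6 in KD, so both denervated libraries held about 0.47 times the sham level. The log2 fold change was -1.08 (SE 0.079, edgeR adjusted p = 1.84e-12), and 5.0% of all genes had a lower one. TFEB activity is set mainly by phosphorylation and entry into the nucleus, which mRNA does not show.

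Single pairs of libraries give no estimate of the spread between replicates, so genes at least 2-fold apart were counted. In WD vs WS these were 2 higher members, Map1lc3a and Gabarapl1 (background 7.18%), and 2 lower members, Tfeb and Atg4d (background 7.61%). In KD vs KS they were 2 higher members, Map1lc3a and Atg7 (background 7.51%), and 1 lower member, Tfeb (background 6.1%). With library totals 5 members were 2-fold higher and 0 lower in each of these pairs. Gabarapl1, Atg7 and Atg4d lay close to the line in both genotypes, so their place on either side of it is not shown to be a difference between genotypes. The log2 ratio of Gabarapl1 was 1.07 in WT (counting interval 0.969 to 1.17) and 0.82 in Fgf21KO (0.735 to 0.912). That of Atg7 was 0.86 (0.640 to 1.09) and 1.002 (0.794 to 1.22), and that of Atg4d -1.03 (-1.15 to -0.916) and -0.87 (-0.981 to -0.763). In all, 23 members were higher in both genotypes, 12 lower in both, and 3 had opposite signs. None of these 3 was called, but the test favours genes that moved alike in both genotypes.

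None of the 38 was called for genotype by edgeR's quasi-likelihood test, where 0.673% of all genes were, and none by DESeq2, which called 30 of all genes. By the sources, the sham and denervated pools of a genotype come from the same mice, so each genotype is 1 set of mice and these p-values do not cover differences between mice. Unadjusted p-values below 0.05 in edgeR belonged to 3 members, Pik3c3 (log2 Fgf21KO over WT 0.38, adjusted p = 0.0542), Map1lc3a (0.22, adjusted p = 0.259) and Atg10 (0.32, adjusted p = 0.469). No member was 2-fold apart in KS vs WS, where 2.04% of all genes were, nor in KD vs WD, where 1.55% were. The log2 ratios of members ran from -0.18 to 0.55 in KS vs WS and from -0.23 to 0.27 in KD vs WD, with medians of 0.004 and -0.021. Counting intervals left out 0 for 9 members in the sham comparison and 8 in the denervated one. The same shares over all genes were not computed, so these counts have no background. The highest ratios in KS vs WS belonged to Atg10 (0.55, interval 0.310 to 0.798) and Pik3c3 (0.50, interval 0.352 to 0.651). Pik3c3 was at 24.53 CPM in WS and 29.01 in WD, and 34.71 in KS and 35.07 in KD, so both KO libraries lay above both WT libraries. How many of all genes separate so was not computed.

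Whether denervation acted differently in the 2 genotypes cannot be tested with 1 library per group. As a description, the log2 ratio was smaller in Fgf21KO than in WT for 24 members (63.2%, against 50.8% of all genes) and larger for 14, with a median difference of -0.026 for members and -0.00481 for all genes. The counting interval of the difference left out 0 for 9 members. How often it did so over all genes was not computed, and such intervals are narrower for genes with more counts. In 6 of them Fgf21KO had the lower ratio: Atg10 (-0.43, interval -0.726 to -0.131), Optn (-0.33, -0.428 to -0.222), Gabarapl1 (-0.25, -0.378 to -0.113), Pik3c3 (-0.23, -0.420 to -0.032), Sqstm1 (-0.15, -0.183 to -0.107) and Map1lc3a (-0.08, -0.144 to -0.008). In 3 it had the higher one: Atg4d (0.16, 0.003 to 0.320), Atg13 (0.16, 0.012 to 0.299) and Ulk1 (0.13, 0.030 to 0.235). In all 6 genes with the lower ratio KS lay above WS, from 0.097 for Optn to 0.549 for Atg10 on the log2 scale. Their KD vs WD ratios were 0.273 for Pik3c3, 0.179 for Map1lc3a, 0.12 for Atg10, -0.023 for Sqstm1, -0.055 for Gabarapl1 and -0.228 for Optn. For Optn the KD library was the lowest of the 4. In the 3 with the higher ratio, KS vs WS was 0.03 for Atg4d, -0.076 for Atg13 and -0.11 for Ulk1. These intervals hold counting error only and leave out the spread between mice and pools.

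**Figure D3:**
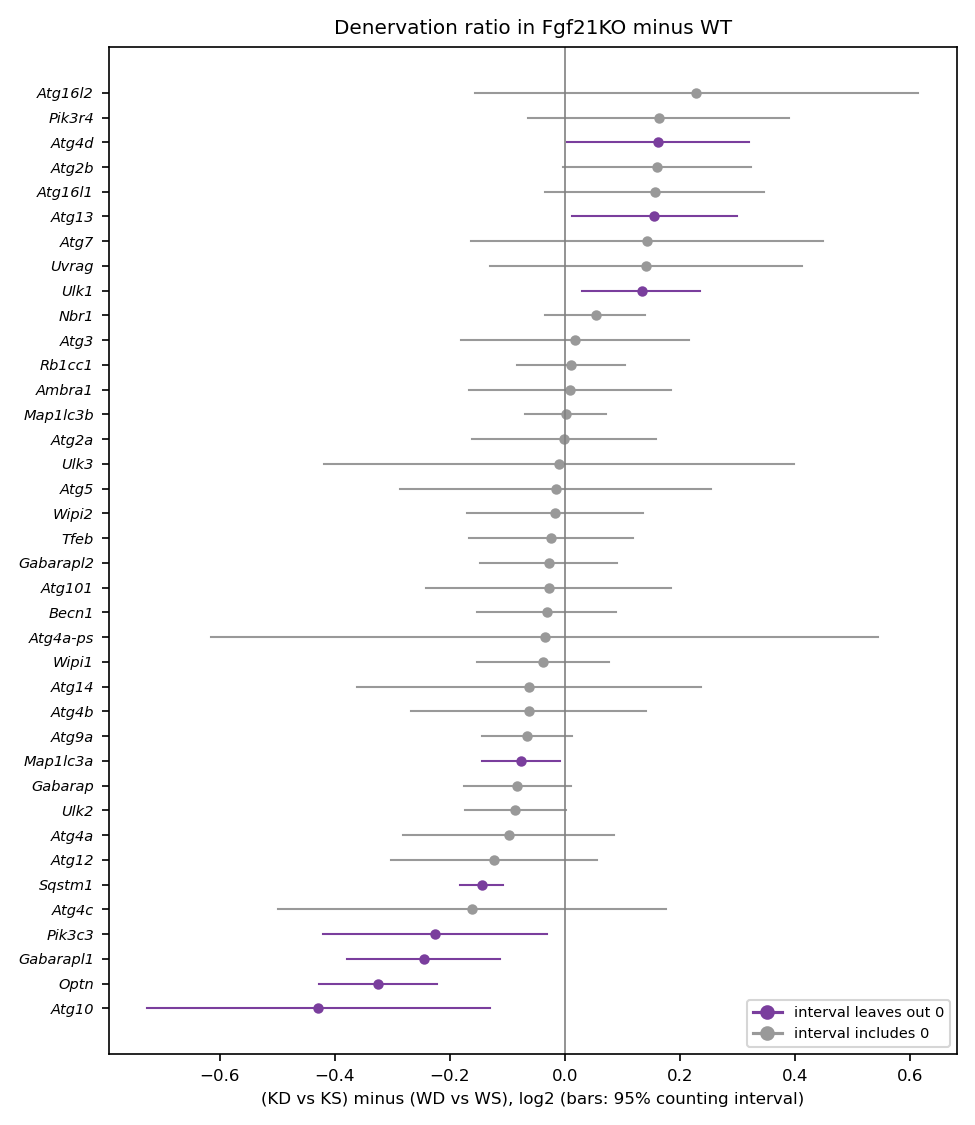
Log2 denervation ratio in Fgf21KO minus that in WT for each of the 38 genes, with 95% intervals for counting error; purple marks intervals that leave out 0. Atg10 lies lowest at -0.43, 6 purple genes lie below 0 and 3 above, and most intervals include 0.

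The genes around the core machinery were read from lists of its neighbours. The background for the calls in all 5 lists is 26.6% of all genes tested called higher and 27.0% called lower. Receptors outside the rule had 5 genes higher, 3 lower and 8 not called of 16, with a median log2 fold change of 0.032. Highest was Stbd1, which tethers glycogen to the Atg8 proteins, with 1252 counts in WS and 5968 in WD, and 1594 in KS and 5860 in KD (log2 fold change 1.79). Retreg1, a receptor for the endoplasmic reticulum (0.68), and Tax1bp1, a ubiquitin receptor (0.58), followed. The lowest were the mitochondrial receptors Fundc1 (-0.42) and Bcl2l13 (-0.36) and the reticulum receptor Ccpg1 (-0.36). Other early-step regulators had 6 higher, 4 lower and 8 not called of 18 (median 0.039), led by the kinase Tbk1 (0.49), the segregase Vcp (0.41) and Sh3glb1 (0.35), with Bcl2, which binds beclin 1, lowest (-0.68), then Zfyve1 (-0.38) and Nrbf2 (-0.37).

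Fusion of the autophagosome with the lysosome had the most genes called lower of the 5 lists. It had 2 higher, 7 lower and 7 not called of 16, with a median of -0.17 (all genes: 26.6% higher, 27.0% lower). The small GTPase Rab7 fell most (-0.78), followed by the lysosomal membrane protein Lamp1 (-0.34) and the Rab7 effector Rilp (-0.33), while Lamp2 (0.56) and the tethering subunit Vps16 (0.44) rose. Vps16 was at 19.15 and 21.72 CPM in WS and WD but at 15.18 and 24.47 in KS and KD, a difference between genotypes that was not tested. Transcriptional regulators had 3 higher, 2 lower and 5 not called of 10 (median -0.04). Foxo1, known to drive atrophy and autophagy genes in muscle, was at 22.51 CPM in WS and 57.4 in WD, and 23.9 in KS and 69.75 in KD (log2 fold change 1.45). Nfe2l2 (0.57) and Ppargc1a (0.24) were also called higher, and Foxo4 (-0.92) and Atf4 (-0.76) fell. Ppargc1a was at 51.0 and 70.2 CPM in WS and WD but at 57.06 and 57.7 in KS and KD, and this difference between genotypes was not tested. Tfe3 and Mitf, the close relatives of Tfeb, were not called, at -0.09 and -0.20.

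Upstream, nutrient and mTORC1 signalling had 10 genes higher, 6 lower and 8 not called of 24 (median 0.05), beside 26.6% higher and 27.0% lower of all genes. The stress-induced inhibitor Sesn3 rose most (1.61), followed by the kinase Mtor itself (0.81) and Sesn2 (0.62). Prkaa2, the main catalytic subunit of AMPK in muscle, fell most (-1.20), from 436.7 CPM in WS to 209.7 in WD and from 460.1 in KS to 182.5 in KD, and Castor1 (-0.83) and Rragd (-0.68) fell as well. None of the genes in these 5 lists was called for genotype by edgeR, where 0.673% of all genes were.

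**Figure D4:**
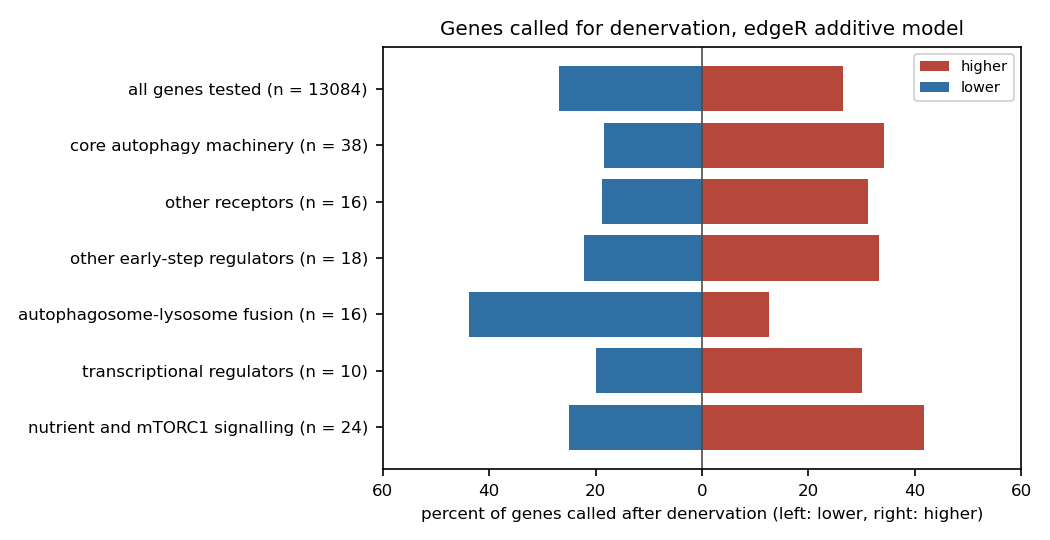
Percent of genes called higher (red, to the right) or lower (blue, to the left) after denervation in edgeR's additive model, for all 13084 genes, the 38 core autophagy genes and the 5 neighbouring lists, with the number of genes tested in brackets. The core genes show 34.2% higher and 18.4% lower beside 26.6% and 27.0% of all genes, and the fusion list has the longest blue bar.

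Promoter sequence was examined because TFEB-type factors bind E-boxes of the form CACGTG, FoxO factors bind GTAAACA and ATF/CREB factors bind sites holding TGACGT. RefSeq promoters on GRCm38.p6, from 250 bases before to 50 after the start, were matched for 31 of the 38 members. CACGTG, which reads the same on both strands, was found in 4 of them (12.9%), against 10.5% of 9908 promoters of genes in the table and 7.24% of 27025 promoters in all. The longer TCACGTG, always part of a CACGTG match, was in 3 (9.68%, against 6.29% and 3.84%). GTAAACA was in none on either strand, against 2.4% and 3.55%. These counts use the first listed start of each gene. TGACGT on either strand was in 6 (19.4%, against 12.2% and 7.64%): Atg10, Atg16l2, Atg4a, Atg5, Gabarapl2 and Ulk2. Nbr1 held it at a second listed start. The 4 E-box windows are shown because they are all of the member promoters with this box, with CACGTG in capitals and 20 bases on each side, each 5′ to 3′ on the strand of its gene. Atg14 is at chr14:47568410-47568455 (minus), Atg3 at chr16:45158715-45158783 (plus), Atg5 at chr10:44268305-44268350 (plus) and Atg7 at chr6:114670944-114670989 (plus).
Atg14: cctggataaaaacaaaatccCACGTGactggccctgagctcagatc
Atg3: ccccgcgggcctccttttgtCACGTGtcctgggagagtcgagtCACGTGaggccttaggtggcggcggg
Atg5: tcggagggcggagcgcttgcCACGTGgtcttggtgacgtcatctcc
Atg7: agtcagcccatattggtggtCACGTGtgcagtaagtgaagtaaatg

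Of these 4 genes Atg7 rose after denervation, while Atg14, Atg3 and Atg5 were not called (log2 fold changes 0.04, -0.16 and 0.01). The windows of Atg7 and Atg14 lie inside the gene as GENCODE draws it, downstream of its outermost start. In GENCODE Atg7 begins at chr6:114643097 and Atg14, on the minus strand, at chr14:47570649. Which start was used in these muscles was not examined. Of the 36 promoter entries of members, the ends of 31 were found in transcripts of the same gene. The remaining members that rose and had a promoter entry held no CACGTG within this window. The whole window of Gabarapl1, the largest riser with an entry, and that of Ulk2, a gene that fell and has a TGACGT match, are given to show one promoter from each direction. Gabarapl1 is at chr6:129532942-129533241 (plus) and holds none of the searched motifs, and Ulk2 is at chr11:61855043-61855342 (minus), with TGACGT in capitals. A match of letters is a description and not a bound site.
Gabarapl1: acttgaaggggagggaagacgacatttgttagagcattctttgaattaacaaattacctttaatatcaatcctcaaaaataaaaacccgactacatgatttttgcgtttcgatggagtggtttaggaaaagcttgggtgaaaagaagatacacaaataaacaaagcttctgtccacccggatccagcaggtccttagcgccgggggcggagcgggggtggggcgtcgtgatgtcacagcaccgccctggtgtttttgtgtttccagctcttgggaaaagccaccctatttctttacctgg
Ulk2: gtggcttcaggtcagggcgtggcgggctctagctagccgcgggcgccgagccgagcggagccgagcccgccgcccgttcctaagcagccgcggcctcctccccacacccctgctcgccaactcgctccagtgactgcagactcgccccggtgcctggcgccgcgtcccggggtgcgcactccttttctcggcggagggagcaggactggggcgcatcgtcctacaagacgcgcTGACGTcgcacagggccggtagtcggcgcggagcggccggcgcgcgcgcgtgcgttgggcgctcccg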

How the data were processed

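The authors pooled the RNA of 4 TA muscles per group and sequenced 1 stranded mRNA library each, and the submitters' processing notes name FastQC and GRCm39. The aligner, counter and annotation are not given in the sources used here. The deposited count table holds reads per gene without normalization. The deposited second table is on a log2 scale: a count was multiplied by a constant of its library, 1 was added and the log2 taken, with no length correction although the authors named it for FPKM. It served only as an alternative.

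Columns were matched to groups by initials. The members and gene lists were chosen with earlier results of these data known. Genes averaging at least 10 counts over the libraries were tested in edgeR 4.0.16 (R 4.3.3; TMM, quasi-likelihood, terms for genotype and surgery, Benjamini-Hochberg over 13084 genes; common biological variation 0.068). SE is the log2 fold change over the root of F. Pair ratios used CPM with a prior count of 2 and exact binomial intervals (95%), which cover counting error only. Values in all libraries are given for members at least 2-fold apart in a pair, for the 4 highest and 4 lowest, for the Atg8 family and receptors, for Ulk1, Becn1 and Tfeb, and, chosen after their values were seen, for some others. For each other list the 3 highest and 3 lowest genes called are named, and any further gene was chosen after its values were seen. Alternatives were DESeq2 1.42.0 (size factors, Wald test), total counts, other filters, prior counts and folds, a single factor, leaving out each library, an exact test at assumed variation, and the second table. On simulated data with 200 of 13084 genes changed, far fewer than were called here, the denervation test recovered 77% at 1.5-fold and 94% at 2-fold, with 17 and 2 unchanged genes called. Positions and transcripts are from GENCODE M21 (GRCm38) and promoters from RefSeq (GRCm38.p6), which is not the build named for the counts, so they were joined by symbol only. Tables with proteins were not used here.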

Additional observations from a re-analysis of the deposited data

How the results depend on the processing

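The number of members called for denervation was 20. It was 33 (27 higher, 6 lower) with library totals and 2 with an added 2-fold threshold. It ran from 16 to 19 without 1 library in a model of surgery alone, where a lone library in a group is assumed to vary like the others. DESeq2's Wald test called 15 (9 higher, 6 lower), which left out Atg10, Optn, Atg2b, Ambra1 and Atg13, and edgeR with DESeq2's size factors or with surgery alone called 19, without Atg13. The number called for genotype was 0 under every alternative run. With genotype as the only term and all 4 libraries, 0 of all genes were called, so that fit could not have called a member. The fits with other scaling or filters and DESeq2's Wald test called 30 to 83 of all genes, against 88 in the main fit. Having no member called thus says little about the members. Members 2-fold apart in WD vs WS were 4 (5 higher and 0 lower with library totals), against 12 at 1.5-fold, 14 in an exact test at an assumed variation of 0.1 and 1 at 0.2. In KD vs KS they were 3, against 10, 13 and 1, and 5, all higher, with library totals. The median log2 ratio went from 0.095 to 0.378 in WD vs WS and from 0.069 to 0.427 in KD vs KS with library totals, where all genes stood at 0.287 and 0.364. With totals 6 genes turned positive: Rb1cc1 (0.305), Atg4b (0.281), Atg3 (0.164), Optn (0.0732), Wipi2 (0.310) and Atg2a (0.145). Atg5 and Atg4c, close to 0 under TMM, turned negative with DESeq2's size factors (-0.00256 and -0.00133) and its Wald test (-0.00247 and -0.000332). The cause of these shifts was not tested beyond the scaling itself. Of the other values for single members, 124 kept direction and side of the threshold, 11 passed it under totals, and 7 lost it. No paired analysis was possible because the 4 groups share only 1 replicate number. The genotype term of the model does match the sham and denervated pool of each genotype. With 1 pool per group, differences between mice and a dependence of the denervation effect on genotype could not be tested.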
